A study of Mus musculus with 15 samples.

Results

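The genes described here are the major histocompatibility complex (MHC) genes of mouse liver and the genes that load their products with peptide. They were chosen by symbol: every gene of the expression table whose symbol starts with H2-, the mouse MHC prefix, together with B2m, Cd74, Ciita, Tap1, Tap2, Tapbp, Tapbpl, Nlrc5 and Erap1. This gave 38 of the 16809 genes in the table. By their annotated products, 19 were class I heavy-chain genes or pseudogenes, 7 were class I partner or peptide-loading genes, 11 belonged to class II, and 1, H2-Ke6, lies in the MHC region but encodes a hydroxysteroid dehydrogenase and presents no peptide. Low counts kept 6 of the 38 out of the tests (H2-Bl, H2-Eb2, H2-M2, H2-M5, H2-Oa and H2-Q8), which left 32 tested members: 15 class I heavy chains, 7 partner and loading genes, 9 class II genes and H2-Ke6.

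RNA was sequenced from livers of wild-type mice in 5 groups of 3 libraries, all sampled after 6 weeks. The control group ate standard feed. The model group ate a high-fat diet in which 78.8% standard feed was supplemented with lard and egg yolk powder (10% each), 1% cholesterol and 0.2% sodium cholate. Mice of the other groups were labelled as fed a high-fat diet, of unstated composition, and received a flavonol by oral gavage. The daily dose was 200 mg/kg for quercetin, 75 mg/kg for myricetin and 100 mg/kg for kaempferol. Quercetin, myricetin and kaempferol are plant flavonols that differ in the number of hydroxyl groups on the B ring; here they also differed in dose. The strain, sex and age of the mice, and whether control and model mice were gavaged, were not given in the sources used here. Libraries kept the numbers of the labels: 1, 2 and 3 for the control, 1, 2 and 5 for the model, 2, 5 and 8 for quercetin, 5, 7 and 8 for myricetin, and 3, 5 and 8 for kaempferol, and values within a group are always listed in that order. The labels do not say that each library came from its own mouse, so a p-value here measures the spread between libraries.

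Class I molecules carry peptides made inside the cell to CD8 T cells. A polymorphic heavy chain (H2-K1 and H2-D1 encode the classical ones) pairs with the light chain beta-2 microglobulin, from B2m. Proteasomes cut the peptides, the transporter encoded by Tap1 and Tap2 carries them into the endoplasmic reticulum, Erap1 trims them, and tapasin (Tapbp) and its relative Tapbpl help to select those that stay bound. Class II molecules (H2-Aa, H2-Ab1 and H2-Eb1) carry peptides from endosomes to CD4 T cells and are made mainly by B cells, dendritic cells and macrophages. The invariant chain Cd74 guards their groove, H2-DM (H2-DMa with H2-DMb1 or H2-DMb2) exchanges the peptide, and H2-O (H2-Oa with H2-Ob) restrains H2-DM, above all in B cells. Nlrc5 and Ciita are the transactivators of class I and class II genes; both act through a promoter module with an X box and a Y box. In liver, hepatocytes and non-parenchymal cells both carry class I, and H2-Q10 encodes a secreted class I molecule that hepatocytes make.

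Promoter sequences are shown for 7 members whose expression is described below, with exact matches to short motif strings marked. They are class I genes that did or did not differ between the high-fat groups and the control (H2-D1, H2-Q4, H2-Q10), the transporter gene Tap1, and class II genes (H2-Aa, H2-Eb1, H2-Ob). Each is the 250 bases before the start used by the RefSeq promoter table of GRCm38.p6, 5′ to 3′, on chromosome 17: H2-D1 at chr17:35262844-35263093 (+ strand), H2-Q4 at chr17:35379367-35379616 (+ strand), H2-Q10 at chr17:35469839-35470088 (+ strand), Tap1 at chr17:34187306-34187555 (+ strand), H2-Aa at chr17:34287824-34288073 (- strand), H2-Eb1 at chr17:34305617-34305866 (+ strand) and H2-Ob at chr17:34238655-34238904 (+ strand). Capitals mark matches, on either strand, to ATTGG (the Y box core), TGACG (the X2 box core), GAAA, any 2 bases and GAAA again (an interferon response motif) or GGATTCCCC (an NF-kB motif).
H2-D1: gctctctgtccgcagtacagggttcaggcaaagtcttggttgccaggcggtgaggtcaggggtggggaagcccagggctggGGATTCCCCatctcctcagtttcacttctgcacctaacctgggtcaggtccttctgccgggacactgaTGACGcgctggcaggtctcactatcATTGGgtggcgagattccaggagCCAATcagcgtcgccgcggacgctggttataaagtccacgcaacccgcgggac
H2-Q4: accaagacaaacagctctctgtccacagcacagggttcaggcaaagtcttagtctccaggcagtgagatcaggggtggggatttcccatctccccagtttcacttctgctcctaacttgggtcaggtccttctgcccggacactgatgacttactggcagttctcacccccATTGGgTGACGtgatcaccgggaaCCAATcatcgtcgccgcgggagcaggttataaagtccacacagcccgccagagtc
H2-Q10: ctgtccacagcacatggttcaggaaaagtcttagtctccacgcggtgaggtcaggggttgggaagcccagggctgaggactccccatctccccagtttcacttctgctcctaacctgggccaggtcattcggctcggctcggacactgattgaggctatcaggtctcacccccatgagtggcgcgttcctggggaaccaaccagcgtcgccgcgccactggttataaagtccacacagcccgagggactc
Tap1: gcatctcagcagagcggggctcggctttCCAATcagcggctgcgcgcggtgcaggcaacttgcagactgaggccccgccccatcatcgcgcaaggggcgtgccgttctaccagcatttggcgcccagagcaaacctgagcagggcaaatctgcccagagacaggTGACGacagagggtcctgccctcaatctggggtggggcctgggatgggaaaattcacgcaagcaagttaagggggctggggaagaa
H2-Aa: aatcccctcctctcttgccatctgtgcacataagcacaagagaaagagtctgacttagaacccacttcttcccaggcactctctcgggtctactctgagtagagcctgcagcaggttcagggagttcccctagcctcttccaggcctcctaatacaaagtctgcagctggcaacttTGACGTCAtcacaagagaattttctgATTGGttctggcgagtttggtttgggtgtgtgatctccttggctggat
H2-Eb1: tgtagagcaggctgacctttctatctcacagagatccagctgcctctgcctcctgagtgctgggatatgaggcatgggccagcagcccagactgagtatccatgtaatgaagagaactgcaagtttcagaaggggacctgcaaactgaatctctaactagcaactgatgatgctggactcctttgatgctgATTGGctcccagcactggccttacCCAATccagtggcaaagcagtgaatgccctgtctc
H2-Ob: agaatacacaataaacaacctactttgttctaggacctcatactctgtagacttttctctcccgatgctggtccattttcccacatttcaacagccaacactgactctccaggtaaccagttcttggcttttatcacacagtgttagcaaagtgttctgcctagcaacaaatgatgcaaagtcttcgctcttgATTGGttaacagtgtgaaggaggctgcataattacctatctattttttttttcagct
The table held a promoter for 26 of the 38 members. ATTGG was in 22 of these 26, against 33.8% of 32851 promoters of the same length. TGACG was in 10 of 26, against 17.8%, and the 2 matches in H2-Aa overlap as TGACGTCA. GGATTCCCC was found before H2-D1, H2-K1 and H2-Q6, against 0.240% of all promoters, and the interferon response motif before B2m, H2-T22 and H2-T23, against 2.98%. The H2-Q10 window held no exact match to any of the 4. Only these exact strings were searched, so other forms of the same motifs stay in lower case. A window without a match may still hold such a form. A match is a run of letters, not a bound site.

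Expression was given as RSEM expected counts. Each library held 15853767 to 17576502 of them over 14601 to 14919 detected genes. Levels across libraries are given as CPM, counts scaled to library size with TMM factors, and levels between genes as the deposited TPM, which also account for transcript length. Comparisons used edgeR's quasi-likelihood test over 12658 genes, with an adjusted p under 0.05 over all of them as the threshold. Of the 38 members, 32 lie on chromosome 17, where near-identical copies and alternate sequences make counting of single H2- genes uncertain, and strand use in counting was not stated.

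Measured per length, class I far exceeded class II in these livers. B2m was the most abundant member, with a median of 3053 TPM over the 15 libraries and a range of 2335 to 3490.2. It was followed by the heavy chains H2-Q10 at 1601 TPM (1281 to 2338), H2-K1 at 1310.4 (1076 to 1555) and H2-D1 at 584 (485 to 755); the ranges of H2-Q10 and H2-K1 overlap, and that of H2-D1 lies below both. These 3 genes made up 85.3 to 88.7% of all class I heavy-chain TPM in every library. The next heavy chains were H2-T23, which encodes the Qa-1 ligand of NK receptors, at 258 TPM and H2-T22 at 86.1 TPM. The loading genes stood far lower, with median levels of 40.9 TPM for Tapbp, 20.2 for Erap1, 16.3 for Tap2, 12.7 for Tap1 and 12.7 for Tapbpl, and Nlrc5 stood at 4.07.

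Class II genes held 1.77 to 5.30% of the members' summed TPM, with a median of 2.56%. Cd74 led them at 89.5 TPM (54.8 to 181), then H2-Aa at 44.1, H2-Ab1 at 40.3 and H2-Eb1 at 23.4. The peptide editors H2-DMb1 and H2-DMa were at 4.57 and 3.75 TPM, and H2-DMb2, H2-Ob and the transactivator Ciita at 0.800, 0.590 and 0.510. Those last levels rest on few reads: H2-Ob had 2.00 to 62.0 expected counts in a library and H2-DMb2 2.99 to 42.4. The 3 surface chains kept close proportions, with an H2-Ab1 to H2-Aa count ratio of 0.813 to 1.32 and an H2-Eb1 to H2-Aa ratio of 0.682 to 0.987 over the 15 libraries. H2-Ke6, the gene that presents no peptide, stood at 117 TPM and at 57.8 to 86.3 CPM.

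**Figure D1:**
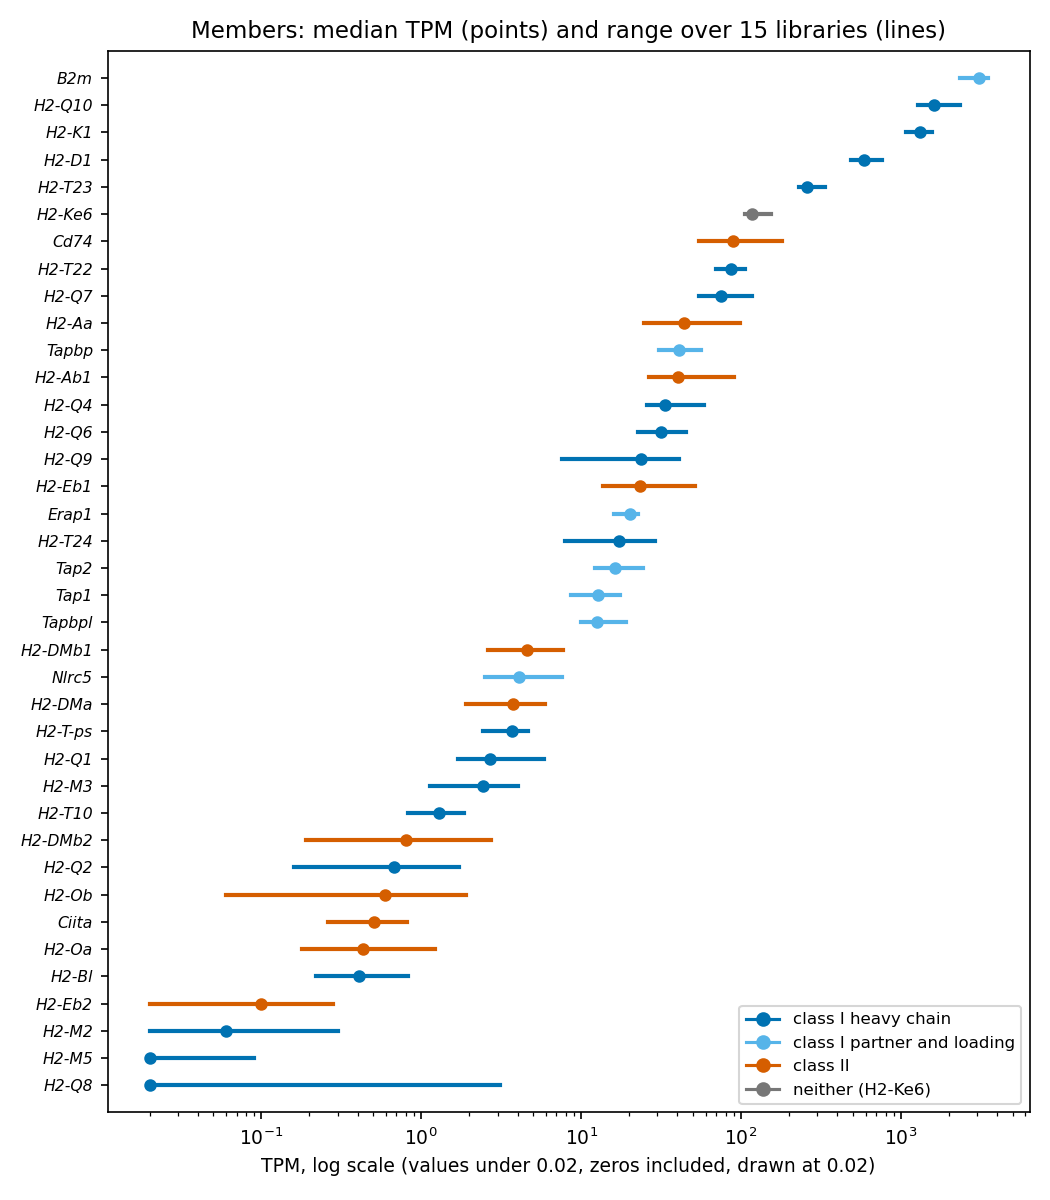
Deposited TPM of the 38 members on a log axis: each point is the median over 15 libraries and each line the range, with values under 0.02 drawn at 0.02. B2m, H2-Q10, H2-K1 and H2-D1 stand above every other member, and the class II genes spread from Cd74 at 89.5 TPM to medians under 1 TPM for H2-DMb2, H2-Ob, Ciita, H2-Oa and H2-Eb2.

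More members passed in edgeR between standard feed and the high-fat groups as a whole than in any other comparison. This contrast pools the model with the flavonol groups, so diet, flavonol and gavage cannot be told apart in it. Below, passing between diets means passing in this contrast. Over the 12 high-fat libraries against the 3 control libraries, 8 of 32 tested members passed in edgeR: H2-DMb2, H2-Ob, H2-Q4, Nlrc5 and Tap1 were higher and H2-Q1, H2-Q10 and H2-Q2 lower. Among all genes tested, 16.3% passed in this comparison, 7.79% higher and 8.5% lower, so a call was common in the whole table. The median log2 difference was 0.13 over the members and 0.00 over all genes. By class it was -0.03 for the class I heavy chains, of which 1 rose and 3 fell, 0.17 for the partner and loading genes, of which 2 rose, and 0.50 for class II, of which 2 rose. All 9 tested class II genes and all 7 partner and loading genes had a positive estimate. These estimates rest on the same 3 control libraries and are not independent of each other. DESeq2 also called 8 members, and 18.1% of all genes.

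**Figure D2:**
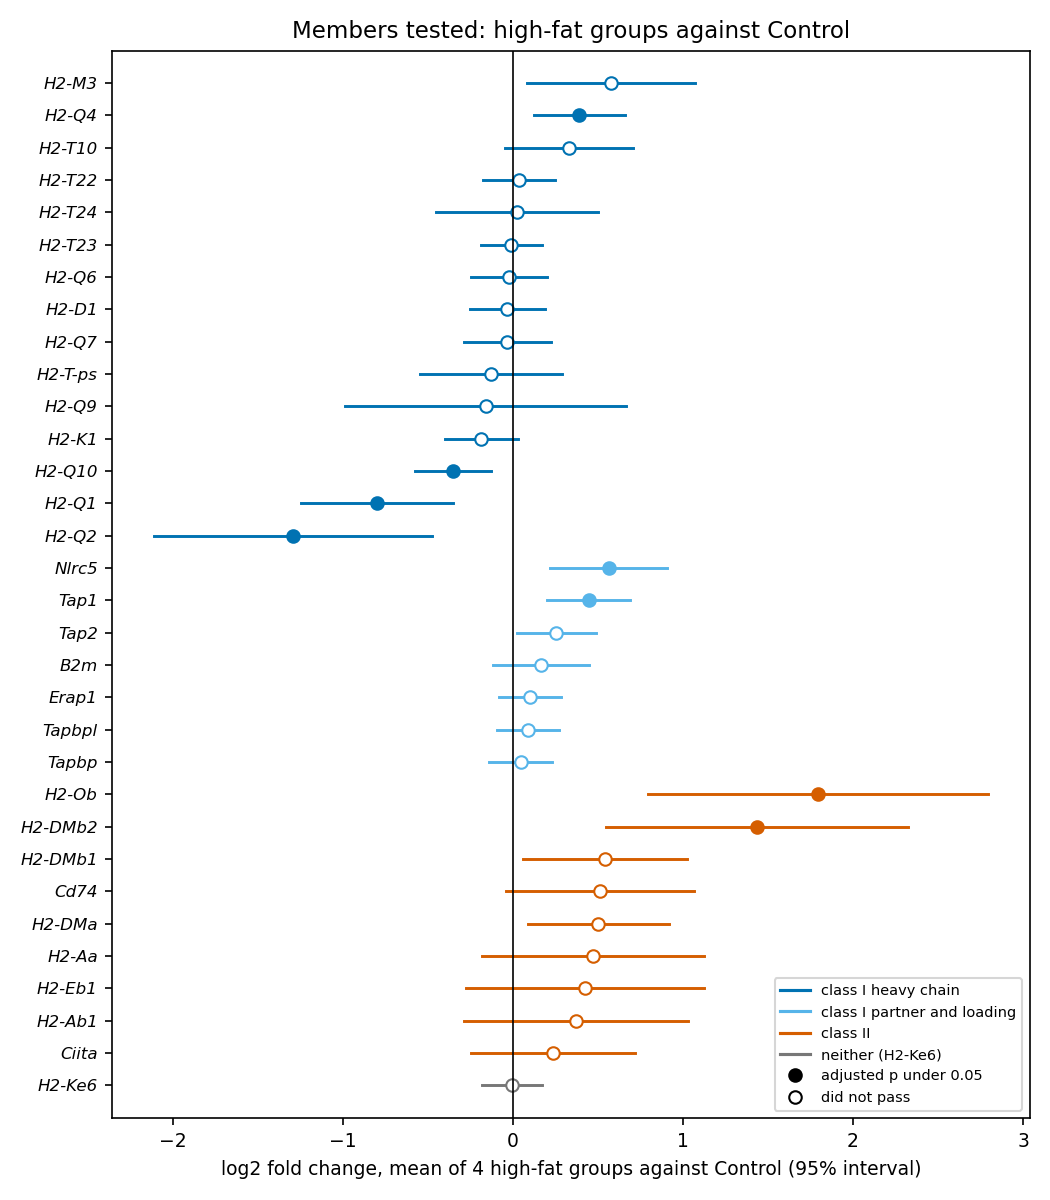
Log2 difference of the 12 high-fat libraries from the 3 control libraries for each tested member, with its 95% interval from the edgeR fit; filled points passed at an adjusted p under 0.05. H2-Ob at 1.79 and H2-DMb2 at 1.44 stand farthest right and H2-Q2 at -1.29 farthest left, while H2-K1, H2-D1 and B2m lie near 0.

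Among the class I heavy chains, the classical genes did not pass and the Q region genes split. H2-K1 (chr17:33996012-34000619), the K molecule, read 1818, 1724 and 1411 CPM in the control, 1680.1, 1216 and 1478 in the model, 1333, 1505 and 1626 with quercetin, 1350.4, 1332 and 1335 with myricetin, and 1606, 1492 and 1486 with kaempferol. The control holds the highest library, 5 of the 12 high-fat libraries lie below every control, and the groups overlap. The difference of the high-fat groups was -0.19 ± 0.10 on the log2 scale (SE, 95% interval -0.40 to 0.03, adjusted p = 0.223, edgeR). H2-D1 (chr17:35263094-35267497), the D molecule, read 810.3, 754 and 617 CPM in the control, 832, 579.7 and 709.9 in the model, 652, 779 and 728 with quercetin, 686, 646 and 636 with myricetin, and 808, 764 and 729 with kaempferol. Its libraries overlap throughout, with a log2 difference of -0.03 ± 0.10 (adjusted p = 0.866, edgeR). The count ratio of H2-D1 to H2-K1 was 0.440 ± 0.0048 in the control and had means of 0.484 to 0.502 in the high-fat groups (SD over 3 libraries each); this ratio was not tested.

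H2-Q10 (chr17:35470089-35474563), the secreted liver class I gene, was lower in the high-fat groups. It read 2355, 1896 and 1855 CPM in the control, 1868, 1639 and 1499.6 in the model, 1955, 1613 and 1702 with quercetin, 1489, 1225 and 1493 with myricetin, and 1495, 1800.1 and 1457 with kaempferol. Of the 12 high-fat libraries, 10 lie below every control; Model 1 and Quercetin 2 fall within the control range, and Control 1 is the highest of all. The high-fat groups fell by 0.35 ± 0.11 on the log2 scale (95% interval -0.57 to -0.13, adjusted p = 0.0342, edgeR). Hepatocyte markers moved the same way in part: Hnf4a, a hepatocyte transcription factor, and Alb, albumin, were 2 of 9 tested hepatocyte markers that fell, by 0.80 and 0.52 on the log2 scale, and the markers' summed level was 102376 to 114250.0 CPM in the control and 68500.4 to 105235 in the high-fat libraries. Their part in the H2-Q10 difference was not tested. In bulk liver RNA, fewer cells of a type and less RNA per cell cannot be told apart, here and for every marker given below.

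H2-Q4 (chr17:35379617-35384674), another Q region heavy chain, moved the other way. It read 42.5, 34.3 and 32.7 CPM in the control, 42.7, 36.6 and 42.9 in the model, 61.1, 54.5 and 49.1 with quercetin, 56, 51.5 and 35.0 with myricetin, and 55.2, 45.8 and 46.7 with kaempferol. Of the high-fat libraries 10 exceed every control, while Model 2 and Myricetin 8 do not. The log2 difference was 0.39 ± 0.13 (95% interval 0.12 to 0.66, adjusted p = 0.0458, edgeR). That call held in 6 of 15 fits that each left out 1 library.

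H2-Q1 and H2-Q2, low-expressed Q region genes, were lower. H2-Q1 read 8.94, 3.61 and 7.08 CPM in the control, 3.37, 3.49 and 3.95 in the model, 6.73, 4.38 and 5.17 with quercetin, 3.78, 2.41 and 2.41 with myricetin, and 4.21, 3.06 and 3.41 with kaempferol. Control 2 sits among the high-fat libraries and 6 of those lie below it; the difference was -0.80 ± 0.21 (adjusted p = 0.0188, edgeR). H2-Q2 read 1.90, 1.55 and 2.42 CPM in the control, 0.735, 0.756 and 0.329 in the model, 0.778, 1.33 and 2.22 with quercetin, 0.973, 0.302 and 0.230 with myricetin, and 1.44, 0.318 and 0.908 with kaempferol. All but Quercetin 8 lie below every control, on 4.09 to 38.6 expected counts a library, and the difference was -1.29 ± 0.39 (95% interval -2.11 to -0.48, adjusted p = 0.0326, edgeR).

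The other heavy chains did not pass. H2-T23 and H2-T22 had log2 differences of -0.01 ± 0.08 and 0.04 ± 0.10. H2-M3, which presents formylated peptides, read 1.06 to 2.13 CPM in the control and 2.08 to 3.58 in the high-fat libraries, of which 10 exceed every control, with 0.58 ± 0.23 (adjusted p = 0.101, edgeR). H2-T10, a transcribed pseudogene in RefSeq, was at 0.33 ± 0.18, H2-T24 at 0.02 ± 0.22 and H2-T-ps at -0.13 ± 0.20. The near-identical genes H2-Q6 to H2-Q9, the Qa-2 genes, can trade reads: H2-Q9 ranged from 7.58 CPM in Control 3 to 43.0 in Control 1, and H2-Q8 was at 0 in all but Model 2, Model 5 and Myricetin 8. Summed, they gave means of 138 ± 20.5 CPM (control), 129 ± 23 (model), 142 ± 18.3 (quercetin), 124 ± 9.85 (myricetin) and 142 ± 12.6 (kaempferol), each with the SD of 3 libraries. The sum differed between the high-fat groups and the control by -0.04 on the log2 scale (adjusted p = 0.849, edgeR). H2-Bl, H2-M2 and H2-M5 had at most 12, 5 and 2 expected counts in any library.

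**Figure D3:**
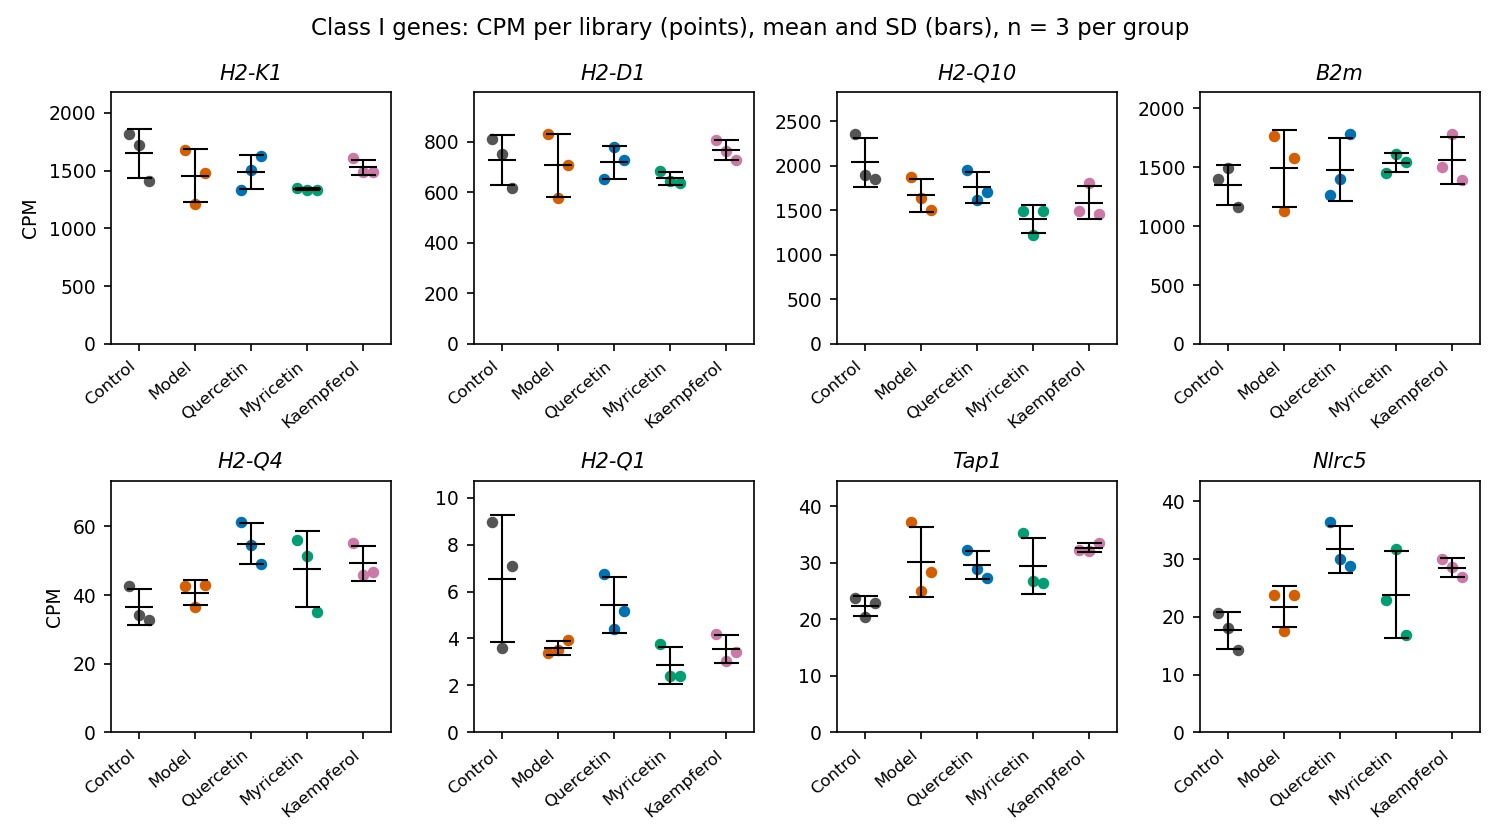
TMM-scaled CPM of 8 class I genes in the 15 libraries by group, with points for libraries and bars for mean and SD of 3 libraries. H2-Q10 and H2-Q1 reach their highest value in Control 1, Tap1 lies above the controls in all 12 high-fat libraries, and H2-K1, H2-D1 and B2m overlap between groups.

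On the loading side, the transporter gene Tap1 and the transactivator Nlrc5 rose while the light chain and tapasin did not pass. Tap1 (chr17:34187556-34197225) read 23.8, 20.4 and 22.8 CPM in the control, 37.1, 25.0 and 28.3 in the model, 32.2, 29.0 and 27.4 with quercetin, 35.2, 26.8 and 26.4 with myricetin, and 32.3, 32.2 and 33.6 with kaempferol. All 12 high-fat libraries exceed all 3 controls, and the log2 difference was 0.44 ± 0.12 (95% interval 0.20 to 0.69, adjusted p = 0.0169, edgeR). Its partner subunit Tap2 read 30.4, 23.7 and 25.5 CPM in the control, 31.9, 28.6 and 32.9 in the model, 37.4, 31.1 and 28.2 with quercetin, 36.8, 30.1 and 26.1 with myricetin, and 33.9, 29.9 and 33.1 with kaempferol. Control 1 overlaps the high-fat libraries, 7 of which exceed it, and the difference was 0.26 ± 0.11 (adjusted p = 0.125, edgeR).

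Nlrc5 (chr8:94434335-94527272) read 20.6, 18.2 and 14.3 CPM in the control, 23.9, 17.6 and 23.7 in the model, 36.4, 30.0 and 28.7 with quercetin, 22.9, 31.8 and 16.8 with myricetin, and 30.1, 28.6 and 26.9 with kaempferol. Of the high-fat libraries 10 exceed every control, and Model 2 and Myricetin 8 do not. The difference was 0.56 ± 0.16 (95% interval 0.22 to 0.91, adjusted p = 0.0287, edgeR). B2m (chr2:122147687-122153082) read 1403, 1489.7 and 1164 CPM in the control, 1765, 1131 and 1582 in the model, 1262, 1399.5 and 1779 with quercetin, 1451, 1612 and 1546 with myricetin, and 1498, 1782 and 1393 with kaempferol. Its groups overlap, with 0.17 ± 0.13 (adjusted p = 0.420, edgeR). Tapbp read 87.4, 72.5 and 80.3 CPM in the control, 87.6, 71.2 and 77.6 in the model, 95.8, 90.3 and 90.3 with quercetin, 85.1, 76.2 and 64.7 with myricetin, and 89.9, 79.6 and 85.8 with kaempferol. It spans both sides of the control range, with 0.04 ± 0.09, and Erap1 gave 0.10 ± 0.09.

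Among class II genes, the 2 calls fell on the tested H2-DM and H2-O genes with the lowest counts, and the surface chains did not pass. H2-Ob (chr17:34238905-34245908), the beta chain of the H2-DM inhibitor, read 0.824, 0.129 and 0.186 CPM in the control, 1.47, 0.756 and 1.05 in the model, 1.56, 0.777 and 0.862 with quercetin, 1.14, 1.15 and 1.21 with myricetin, and 1.38, 2.10 and 3.52 with kaempferol. Control 1 overlaps the lowest high-fat libraries, and 10 of the 12 exceed it. The log2 difference was 1.79 ± 0.47 (95% interval 0.79 to 2.79, adjusted p = 0.0183, edgeR), and it ranged from 1.39 to 3.02 when 1 library at a time was left out. H2-DMb2 (chr17:34143229-34151553), a beta chain of the peptide editor, read 0.570, 0.193 and 0.311 CPM in the control, 1.41, 0.582 and 0.856 in the model, 0.723, 0.666 and 1.29 with quercetin, 0.687, 0.724 and 0.689 with myricetin, and 1.27, 1.08 and 2.38 with kaempferol. All 12 high-fat libraries exceed the controls, Model 2 only narrowly, and the difference was 1.44 ± 0.42 (95% interval 0.55 to 2.33, adjusted p = 0.0300, edgeR). H2-Oa, the partner of H2-Ob, had 2 to 12 expected counts and was not tested. H2-Ob had 2 to 13 expected counts in the control libraries and 13 to 62 in the high-fat ones. For H2-DMb2 these were 2.99 to 9.12 and 10 to 42.4. Both genes met the filter on low counts through the high-fat libraries, so their entry into the tests was not independent of a rise.

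The editor genes with more reads had positive estimates that did not pass. H2-DMa read 4.63, 3.48 and 2.55 CPM in the control, 4.84, 3.20 and 4.54 in the model, 5.06, 5.55 and 5.72 with quercetin, 4.69, 6.63 and 4.31 with myricetin, and 6.36, 4.39 and 5.39 with kaempferol. H2-DMb1 read 3.74, 2.77 and 2.11 CPM in the control, 4.35, 2.73 and 3.69 in the model, 4.89, 3.50 and 4.18 with quercetin, 3.26, 5.55 and 4.60 with myricetin, and 6.09, 3.69 and 3.86 with kaempferol. Control 1 lies within the high-fat range for both genes. Their log2 differences were 0.50 ± 0.20 (adjusted p = 0.0900, edgeR) and 0.54 ± 0.23 (adjusted p = 0.114, edgeR).

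Cd74, the invariant chain, read 74.9, 49.3 and 43.8 CPM in the control, 77.0, 47.9 and 86.0 in the model, 93.3, 66.5 and 80.1 with quercetin, 64.2, 89.1 and 66.8 with myricetin, and 142, 63.3 and 90.4 with kaempferol. Kaempferol 3 is the highest, 7 of 12 high-fat libraries exceed every control, and the difference was 0.51 ± 0.25 (95% interval -0.04 to 1.06, adjusted p = 0.190, edgeR). The alpha chain gene H2-Aa (chr17:34282744-34287823) read 32.1, 22.5 and 19.1 CPM in the control, 26.9, 17.3 and 36.6 in the model, 37.9, 27.7 and 41.2 with quercetin, 28.5, 42.6 and 30.7 with myricetin, and 65.9, 26.9 and 31.8 with kaempferol. Model 2 is its lowest library and Kaempferol 3 its highest, and the groups overlap.

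Its beta chain partner H2-Ab1 read 36.8, 21.8 and 20.2 CPM in the control, 31.0, 22.8 and 39.9 in the model, 38.3, 28.1 and 33.5 with quercetin, 24.1, 42.1 and 26.1 with myricetin, and 65.7, 25.1 and 33.5 with kaempferol. H2-Eb1 (chr17:34305867-34316674), the beta chain of the E molecule, read 28.8, 17 and 17.7 CPM in the control, 21.8, 17 and 33.3 in the model, 32.6, 23.1 and 33.4 with quercetin, 22.1, 35.3 and 20.9 with myricetin, and 56.4, 20.5 and 27.5 with kaempferol. In all 3 surface chain genes Kaempferol 3 is the highest library and Control 1 lies above the other controls. Their log2 differences in the high-fat groups were 0.47 ± 0.30 for H2-Aa, 0.37 ± 0.30 for H2-Ab1 and 0.42 ± 0.32 for H2-Eb1, with adjusted p of 0.306, 0.436 and 0.400 in edgeR. Ciita, their transactivator, read 3.36, 1.67 and 2.48 CPM in the control, 3.55, 2.85 and 3.69 in the model, 3.33, 2.22 and 2.03 with quercetin, 3.15, 2.47 and 2.13 with myricetin, and 4.37, 2.61 and 3.41 with kaempferol, with 0.24 ± 0.23 (adjusted p = 0.512, edgeR). For Ciita 8 of 12 high-fat libraries fall within the control range. H2-Eb2, a further beta chain gene, had at most 9 expected counts.

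**Figure D4:**
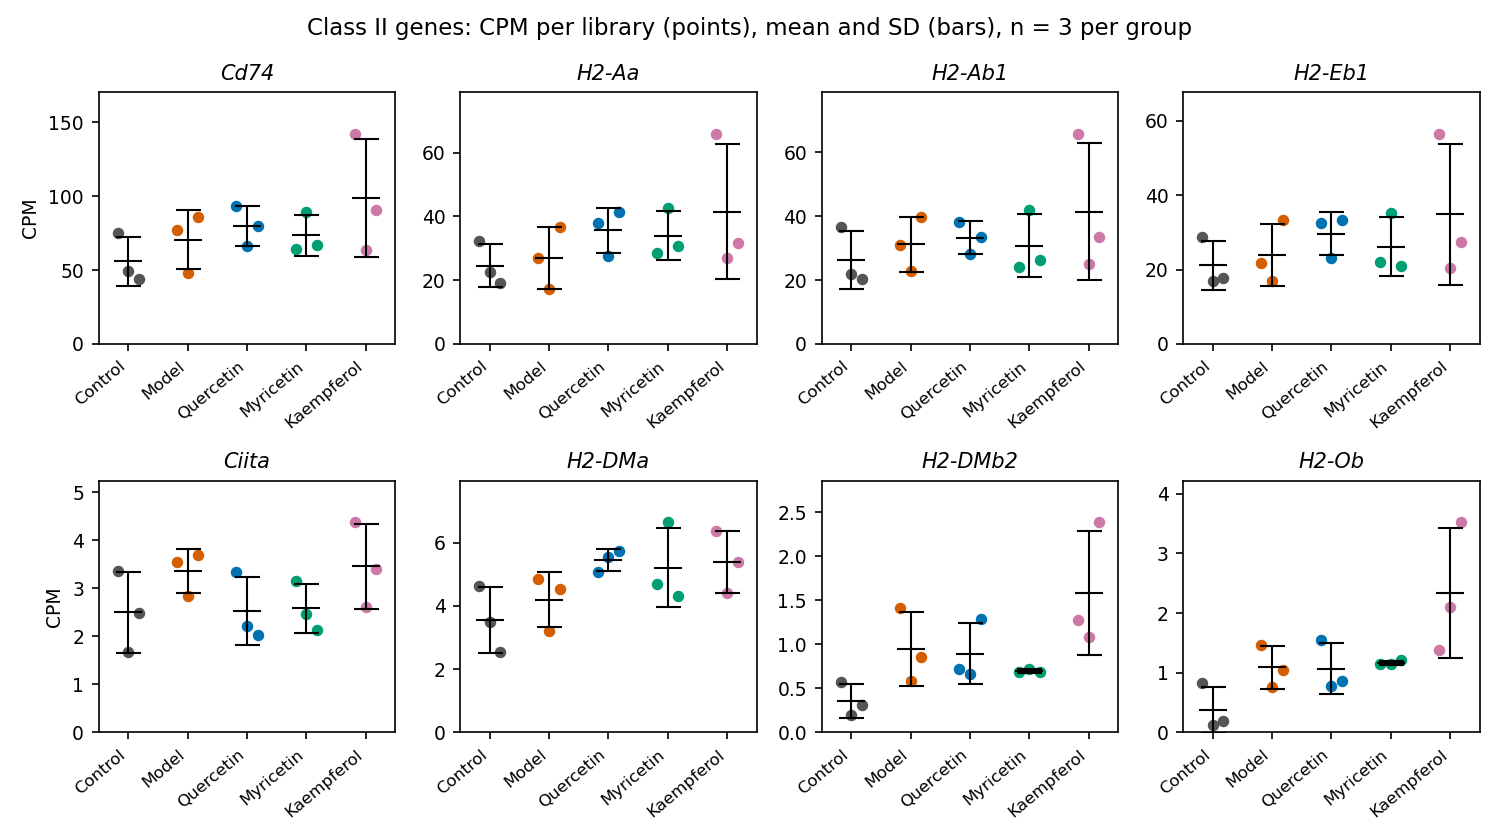
TMM-scaled CPM of 8 class II genes in the 15 libraries by group, with points for libraries and bars for mean and SD of 3 libraries. Kaempferol 3 is the highest library for Cd74, H2-Aa, H2-Ab1, H2-Eb1 and Ciita, whereas Kaempferol 8 is the highest for H2-Ob and H2-DMb2.

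Each of these 8 calls depended on single control libraries. Without Control 3 none of the 8 passed in edgeR, and without Control 2 only H2-Q1 did. Without Control 3 the estimates were 1.34 for H2-DMb2, 1.47 for H2-Ob, 0.43 for Nlrc5, 0.46 for Tap1, 0.31 for H2-Q4, -0.74 for H2-Q1, -0.41 for H2-Q10 and -1.11 for H2-Q2, with adjusted p of 0.0631 to 0.223. Without Control 1, H2-Q10 gave -0.23 (adjusted p = 0.200), H2-Q1 -0.51 (adjusted p = 0.151) and H2-Q2 -1.31 (adjusted p = 0.0663) in edgeR. The number of genes called in the whole table also fell, from 2062 to 675 without Control 2 and 725 without Control 3. None of the 8 changed direction in the fits that left out 1 library. A joint edgeR test of any difference among the 5 groups called 4 members, H2-DMb2 (adjusted p = 0.0403), H2-Ob (0.0267), H2-Q1 (0.0312) and Nlrc5 (0.0395), where 16.1% of all genes passed; without Control 3 it called 0, and DESeq2 called 9 over all libraries, with 24.0% of all genes.

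Among 48 tested genes that serve the same pathways outside these symbols, 10 rose and 7 fell in the high-fat groups against the control. Among those with the smallest p, Cybb, the oxidase subunit that limits acidification of phagosomes in dendritic cells, rose by 1.3 on the log2 scale, Ctss, the protease that degrades the invariant chain, by 0.96, and Lgmn, the endosomal asparaginyl protease, by 0.74. Cybb read 3.17 to 4.83 CPM in the control and 6.92 to 15.3 in the high-fat libraries, without overlap, and its adjusted p was 0.000337 in edgeR. By role, 2 of 5 immunoproteasome and proteasome activator genes rose (Psmb10 by 0.49 and Psmb9 by 0.80), and 3 of 8 class II processing genes. The genes for peptide loading and folding in the endoplasmic reticulum went the other way, with 5 of 6 lower. These 5, named after their values were seen, were Hspa5 (-1.40), Pdia3 (-0.49), Calr (-0.41), Canx (-0.33) and Uggt1 (-0.33); they encode the chaperones BiP, ERp57, calreticulin and calnexin and the glycoprotein folding sensor. Their group's summed level was 3137, 5098 and 5617 CPM in Controls 1, 2 and 3, and 2192 to 3853 in the high-fat libraries, so Control 1 lies within the high-fat range. The model libraries, at 3515 to 3853 CPM, lie within the control range. Libraries of the flavonol groups, at 2192 to 2713 CPM, lie below it.

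Markers of cells that carry MHC molecules moved with the same contrast. The B cell markers had 6 of 7 tested genes higher, among them Cd79b by 2.16, Cd79a by 1.94 and Cd22 by 1.58. Their summed level was 1.87 to 3.93 CPM in the control and 4.83 to 29.6 in the high-fat libraries. The macrophage and Kupffer cell markers had 10 of 14 higher, with the Kupffer cell lectin Clec4f up by 1.09 and Mrc1 by 1.15, and a summed level of 152 to 253 CPM in the control and 321 to 1153 in the high-fat libraries. Endothelial markers had 9 of 10 higher, with sums of 122 to 189 against 159 to 337 CPM. Of 7 tested dendritic cell markers 0 passed in edgeR, 0 had an unadjusted p under 0.05 and DESeq2 called 0; their sum was 12.9 to 14.8 CPM in the control and 9.97 to 17 in the high-fat libraries, and Xcr1 was at 0 in Model 1. Interferon-stimulated genes had 12 of 22 higher, with sums of 462 to 687 against 643 to 1043 CPM. The part of these marker levels in the H2-Ob, H2-DMb2, Tap1 and Nlrc5 differences was not tested.

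The model group alone was also compared with the control, a comparison in which no flavonol was given. Whether either group was gavaged was not stated. In edgeR 0 of 32 members passed, where 4.46% of all genes did. DESeq2 called 1, H2-Q2, lower, with 7.9% of all genes. The members' median log2 difference was 0.15, against -0.01 over all genes. Of the 5 members with the smallest p, H2-Q2 (-1.67 ± 0.54) and H2-Q1 (-0.86 ± 0.28) had negative estimates. H2-Ob (1.50 ± 0.57), H2-DMb2 (1.38 ± 0.50) and Tap1 (0.43 ± 0.14) had positive ones. The adjusted p of these 5 was 0.0870 to 0.130 in edgeR. The other members called in the high-fat groups were at -0.29 ± 0.14 (H2-Q10), 0.16 ± 0.16 (H2-Q4) and 0.30 ± 0.20 (Nlrc5). H2-K1 was at -0.18 (95% interval -0.45 to 0.09), H2-D1 at -0.04 (-0.32 to 0.24), B2m at 0.14 (-0.21 to 0.49) and Cd74 at 0.33 (-0.35 to 1.00). Of the other pathway genes 3 of 48 passed, all higher, among them Cybb (1.01) and Ctss (0.67).

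Quercetin at 200 mg/kg/day was compared with the model to see whether it shifted these genes on a high-fat diet. In edgeR 1 of 32 members passed, where 7.82% of all genes did. DESeq2 also called 1, with 10.2% of all genes. The gene was Tapbpl (chr6:125223927-125231860), the tapasin relative that edits class I peptides. It read 19.4, 17.6 and 18.1 CPM in the control, 18.7, 18.7 and 16.8 in the model, 23.9, 21.9 and 24.1 with quercetin, 20.7, 20.7 and 16.8 with myricetin, and 17.8, 16.7 and 19.6 with kaempferol. The 3 quercetin libraries lie above the other 12, and the log2 difference from the model was 0.36 ± 0.11 (95% interval 0.14 to 0.59, adjusted p = 0.0480, edgeR). The call held in 1 of 15 fits that each left out 1 library, with an adjusted p of up to 0.165. H2-Q4 at 0.43 ± 0.15 and Nlrc5 at 0.55 ± 0.19 did not pass (adjusted p = 0.101 and 0.102, edgeR).

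Of the other pathway genes, 1 rose and 5 fell with quercetin. Psmb10, an immunoproteasome subunit, rose by 0.68 on the log2 scale, from 27.9 ± 3.16 CPM in the model to 44.8 ± 2.16 with quercetin (SD, n = 3 each, adjusted p = 0.00134, edgeR). The genes that fell were Calr (-0.67), Canx (-0.42), Uggt1 (-0.53) and Pdia3 (-0.57), 4 of the 6 loading and folding genes, and Rfxank (-0.71), a subunit of the factor that binds the X box. Pdia3 and Rfxank are named after their values were seen. The summed level of the 6 loading and folding genes was 3515 to 3853 CPM in the model and 2192 to 2524 with quercetin. It was also below the model with myricetin, at 2568 to 2713 CPM, and with kaempferol, at 2483 to 2653. Between quercetin and the model, 12 of 24 ribosomal protein genes rose, with sums of 5416 to 5652 CPM in the model and 6402 to 7672 with quercetin. Of the marker lists, 2 of 4 tested neutrophil genes rose, with sums of 2.73 to 5.88 CPM in the model and 6.28 to 12.2 with quercetin. Of the interferon-stimulated genes 2 of 22 rose, with sums of 643 to 827 against 717 to 801 CPM. Of the T and NK cell markers 1 of 9 fell, with sums of 10.8 to 18.5 against 8.80 to 20.3 CPM. The part of these levels in the differences of Tapbpl and the pathway genes was not tested.

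Myricetin and kaempferol, at 75 and 100 mg/kg/day, each gave 0 of 32 members past the threshold against the model in edgeR. Over all genes 0.395% passed with myricetin and 0.0395% with kaempferol, so few calls were made at all. The member with the smallest p was H2-T10 with myricetin (0.60 ± 0.22). With kaempferol, H2-T10 (0.54 ± 0.22) and H2-Ob (1.09 ± 0.45) had the smallest p. DESeq2 called 0 members in both, with 1.73% of all genes for myricetin and 1.56% for kaempferol. Of the 48 other pathway genes, 0 passed in edgeR with either, and DESeq2 called 3 with myricetin and 8 with kaempferol.

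Because the doses differed, the flavonol groups were not tested against each other, and all 3 comparisons share the model libraries. Side by side, the log2 difference from the model in H2-K1 was 0.03 (95% interval -0.24 to 0.30) with quercetin, -0.12 (-0.40 to 0.15) with myricetin and 0.07 (-0.21 to 0.34) with kaempferol. For Nlrc5 it was 0.55 (0.13 to 0.96), 0.13 (-0.28 to 0.55) and 0.39 (-0.02 to 0.81) in the same order. For Cd74 it was 0.19 (-0.48 to 0.86), 0.06 (-0.61 to 0.73) and 0.49 (-0.18 to 1.16). For Tapbpl it was 0.36 (0.14 to 0.59), 0.10 (-0.13 to 0.33) and 0.00 (-0.23 to 0.23). The class II intervals are wide enough to hold a doubling in Cd74 with kaempferol, and those of H2-K1 are narrower.

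In class II, libraries of the kaempferol group stood apart, each in a different set of genes. Kaempferol 3 was the highest of the 15 libraries in Cd74 (142 CPM, 2.00 times the median of the other 14), H2-Aa (2.23 times), H2-Ab1 (2.22 times), H2-Eb1 (2.50 times), Ciita (1.60 times) and H2-DMb1 (1.64 times). It was also the highest in Itgax, a dendritic cell marker named after its values were seen, at 3.82 CPM against at most 2.35 elsewhere. In the dendritic cell markers Zbtb46 and Clec9a it was not, at 5.70 and 2.77 CPM, nor in the B cell marker Cd79a, at 0.941 CPM.

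Kaempferol 8 was instead the highest in H2-Ob (3.52 CPM, 3.20 times the median of the other 14) and H2-DMb2 (2.38 CPM, 3.38 times), and near the middle in H2-Aa and H2-Ab1. It was the highest library in the B cell marker Cd79a (6.41 CPM), with a summed B cell level of 29.6 CPM against 1.87 to 15.5 elsewhere, and in macrophage and Kupffer cell markers, with 1153 CPM against 152 to 610.0. Class I genes differed in these libraries. In Kaempferol 3 and Kaempferol 8, H2-K1 was 1.08 and 1.00 times the median of the other libraries. In the same order, B2m was 1.02 and 0.933 times and H2-D1 1.12 and 1.01 times that median. H2-M3 stood higher, at 1.44 and 1.60 times, and Kaempferol 8 was its highest library. Nlrc5 was 1.27 and 1.13 times the median. Tap1, at 32.3 and 33.6 CPM, also lay above its median in both libraries. With both left out, an alternative chosen after seeing the data, H2-DMb2 (1.3, adjusted p = 0.0529), H2-Q10 (-0.30, adjusted p = 0.0831), H2-Q4 (0.36, adjusted p = 0.0828) and Nlrc5 (0.57, adjusted p = 0.0542) no longer passed between diets in edgeR, whereas 4 of the 8 members did. The Cd74 difference between kaempferol and model, then resting on Kaempferol 5 alone, became -0.15 on the log2 scale in place of 0.49. The part of the marker levels in the class II values was not tested.

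**Figure D5:**
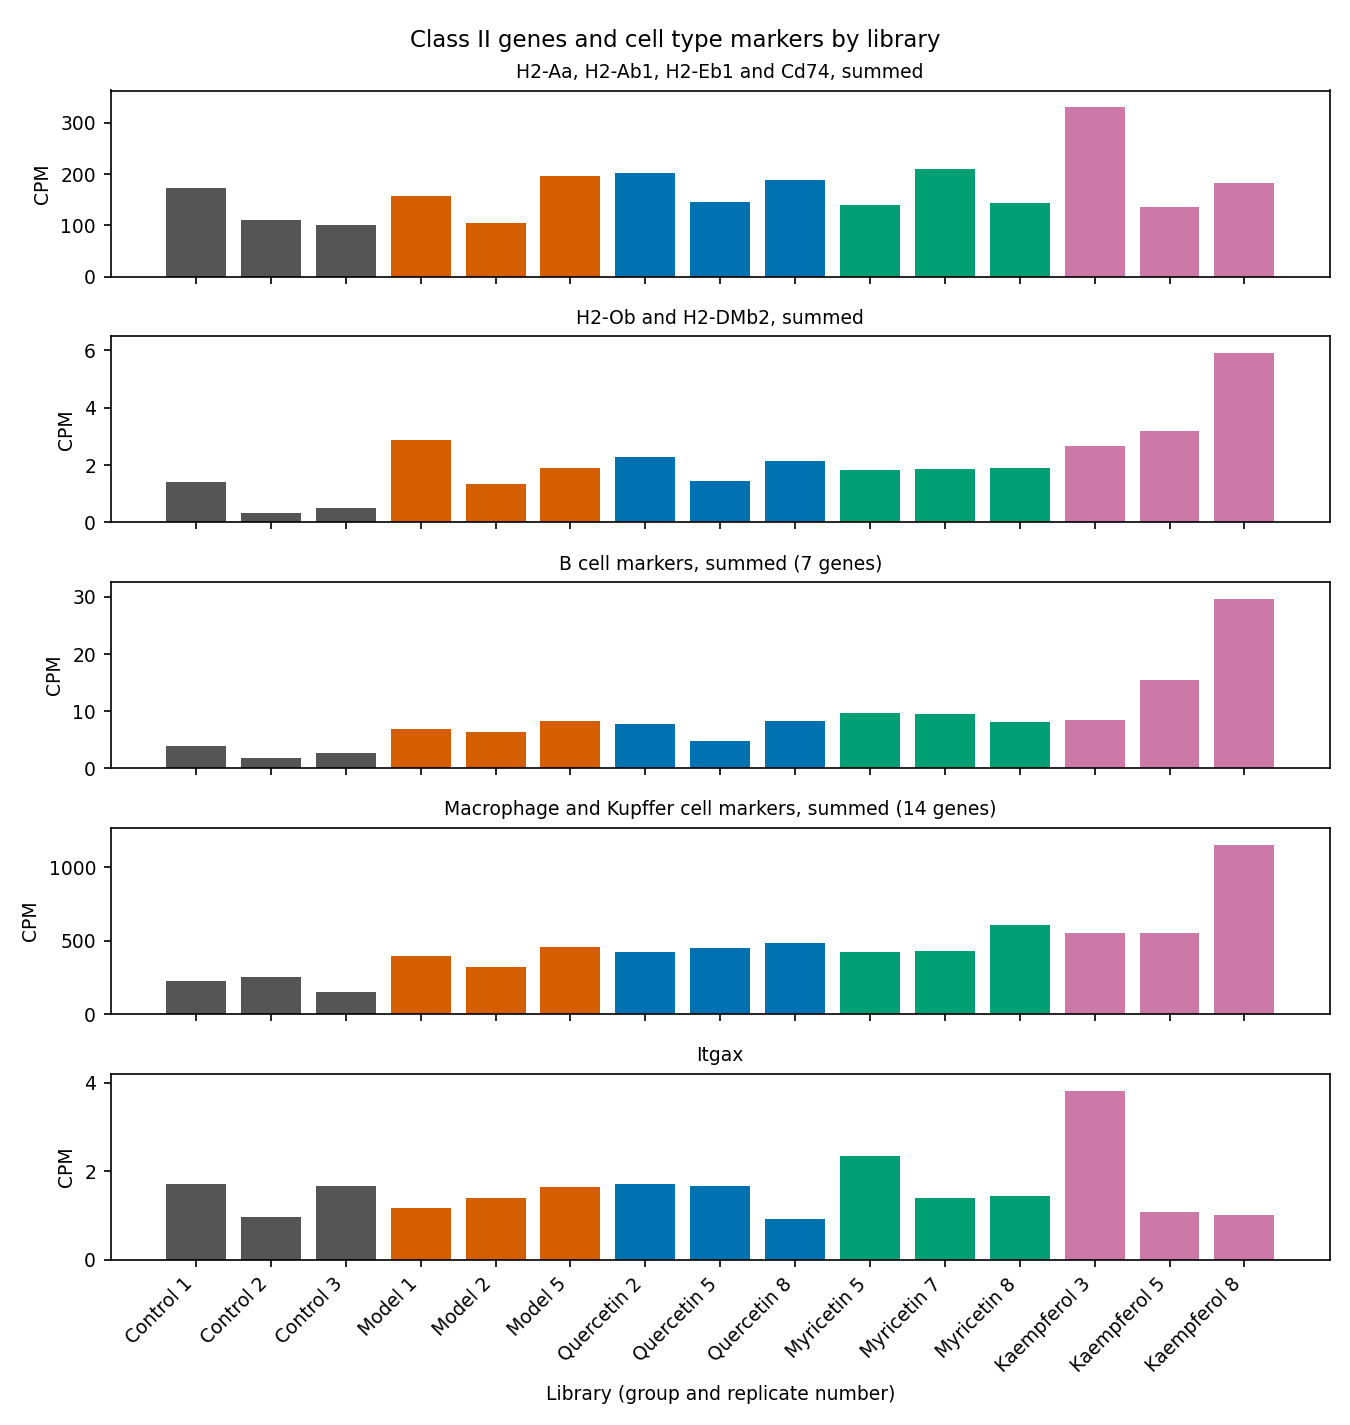
Bars give the CPM in each of the 15 libraries, from 0, of the summed class II surface genes and Cd74, of H2-Ob with H2-DMb2, of 7 B cell markers, of 14 macrophage and Kupffer cell markers and of Itgax. Kaempferol 3 leads in the surface genes and Itgax, and Kaempferol 8 in H2-Ob with H2-DMb2, the B cell sum of 29.6 CPM and the macrophage sum of 1153 CPM.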

How the data were processed

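Libraries were mapped to groups by their labels, which name no batch. The deposited expected counts and TPM per gene came from RSEM 1.3.1; HISAT2 2.1.0, Bowtie2 2.3.4.3, DESeq2 1.4.5 and the build GRCm38.p6 are named in the submitters' processing notes, without roles. Per the file headers, expected counts and TPM stood side by side for each library, and 5.37% of the expected counts were not whole. Here the expected counts were rounded and tested with edgeR 4.0.16 (limma 3.58.1, R 4.3.3): filterByExpr, TMM, a robust quasi-likelihood fit of 5 group means over 15 libraries with 10 residual degrees of freedom, two-sided, Benjamini-Hochberg adjustment over the 12658 genes kept. SE is the log2 difference divided by the root of F. The high-fat contrast is the mean of 4 groups minus the control. DESeq2 1.42.0, other scaling and filters, a replicate block and leaving out each library were alternatives. The fit was tested on simulated counts. CPM are TMM-scaled counts; TPM were not tested.

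Members, roles and marker lists were chosen with earlier results of these data known. Named were the members H2-K1, H2-D1, B2m, Tap1, Tap2, Tapbp, Nlrc5, Cd74, H2-Aa, H2-Ab1, H2-Eb1, Ciita, H2-DMa and H2-DMb1, every member that passed, and up to 4 other pathway genes per comparison by smallest p; some genes that this rule names are not reported here. All 38 member identifiers matched the RefSeq gene table of GRCm38.p6, from which coordinates come. T and NK cell markers had 1 of 9 tested genes higher in the high-fat groups, neutrophil markers 1 of 4, and ribosomal protein genes 3 of 24 lower.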

Additional observations from a re-analysis of the deposited data

How the results depend on the processing

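No member estimate that passed, in the main analysis or under an alternative, had the opposite sign in the other. The alternatives run were RLE size factors, DESeq2, no filter on low counts, a fit of only the groups compared, a replicate block, leaving out each library, and, chosen after seeing the data, leaving out Kaempferol 3 and Kaempferol 8 together or summing H2-Q6 to H2-Q9. Of all member estimates under alternatives, 175 of 3472 changed sign, all of them of members that did not pass: 132 in fits that left out 1 library, 32 with the block, 11 without both kaempferol libraries and 0 with the others. H2-D1 in the high-fat groups, for example, went from -0.03 to 0.05 without Control 1. Counts of genes called moved more. For the model against the control, all genes called numbered 565 in the main analysis, 1000 with DESeq2 and 43 with the block, and members 0, against 1 with DESeq2 and 1 with only the groups compared. For quercetin against the model the 990 genes became 236 with the block, and the 1 member became 0 with no filter, with the block and without both kaempferol libraries, and 2 with only the groups compared. For myricetin the 50 genes became 219 with DESeq2, 5 with the block and 125 with only the groups compared. For kaempferol the 5 genes became 197 with DESeq2, 18 with no filter, 1 with the block, 21 with only the groups compared and 0 without both kaempferol libraries. For the high-fat groups against the control the 2062 genes became 260 with the block, and the 8 members 0 with the block and 4 without both kaempferol libraries. For any of 5 groups the 2039 genes became 217 with the block, and the 4 members 9 with DESeq2, 1 with the block and 1 without both kaempferol libraries. A fit of only the groups compared is the same fit for the last 2 comparisons.

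Leaving out 1 library at a time gave 82 to 919 genes and 0 to 1 members for the model against the control, 429 to 1121 and 0 to 3 for quercetin, 13 to 67 and 0 to 0 for myricetin, 0 to 39 and 0 to 0 for kaempferol, 675 to 2150 and 0 to 8 for the high-fat groups against the control, and 1079 to 2082 and 0 to 4 for any of 5 groups. The labels do not say whether equal replicate numbers link libraries. Deviations from group means correlated at -0.238 to 0.0978 over 14 same-numbered pairs and at -0.246 to 0.300 over 76 others. With 3 libraries a group, these correlations cannot show whether the numbers mark a shared batch. The block result is given only as counts. The cause of these changes was not tested. Among the members that passed, low depth limits H2-Ob, H2-DMb2 and H2-Q2, with at most 62.0, 42.4 and 38.6 expected counts a library.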
